A study of Bos taurus and Bos indicus with 6 samples.

Results

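The genes of the PYCARD inflammasome and of the interleukin 1 cytokines were examined in circulating white blood cells of tick-infested cattle. The members were 8 genes, taken as every probe set that carries one of their symbols in the array's probe-gene table: PYCARD, CASP1, CASP4, NLRP3, IL1A, IL1B, IL1RN and IL18. Of these, 7 genes were found, with 10 probe sets among the 24016 tested, and NLRP3 had no probe set under its symbol. A probe set is a group of short probes for 1 transcript on an Affymetrix bovine array.

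An inflammasome is a protein platform of innate immune cells. A sensor such as NLRP3 detects infection or cell damage and recruits the adaptor PYCARD (also named ASC), which gathers CASP1. This protease then cleaves the precursors of interleukin 1 beta and interleukin 18, so the amount of RNA for these cytokines does not give the amount of active cytokine. In blood the pathway is best known in monocytes and neutrophils. The interleukin 1 receptor antagonist encoded by IL1RN blocks the receptor that both forms of interleukin 1 use.

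The arrays came from 3 Holstein animals (Holstein-Friesian, annotated as Bos taurus) and 3 Brahman animals (annotated as Bos indicus). All 6 were females of 6 months under heavy, repeated infestation with the cattle tick Rhipicephalus microplus, and each animal had its own array. Blood was taken from the jugular vein and red cells were lysed, so the RNA is that of all white cells, with no sorting and no culture. No array of an uninfested animal was analysed here, so a breed difference below may exist without ticks too. The comparison asks whether transcripts of this pathway differ between the breeds while both carry ticks.

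Values are log2 expression after RMA, a method that removes background, brings the arrays to a common distribution and merges the probes of each set into 1 value. Differences are Brahman minus Holstein, so values below 0 mean less signal in Brahman. The array medians lay between 6.54 and 6.61, and the lower quartile of all probe set means was 5.08. Signal was found for markers of the cells such a pellet should hold: the T cell gene CD3E at 10.75 or above, the B cell gene MS4A1 at 12.54 or above and the granulocyte gene S100A8 at 13.46 or above on every array. Holstein 3 lay closest to the Brahman arrays for several of the genes below.

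In limma, 0 of the 10 probe sets passed an adjusted p of 0.05 over all probe sets tested, where 0.137% of all probe sets did. At an unadjusted p under 0.05, 3 of the 10 passed, all lower in Brahman, namely PYCARD and both probe sets of CASP4. The share over all probe sets was 13.6%, with 6.47% lower and 7.12% higher. Counted by gene with the brightest probe set of each, 2 of 7 genes passed, against 15.8% of all genes. The median difference of the 7 genes was -0.30, and that of all 9155 named genes was -0.01. In 3 probe sets the breeds did not overlap (2 lower and 1 higher in Brahman), against 20.0% of all probe sets (8.37% lower and 11.7% higher).

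**Figure D1:**
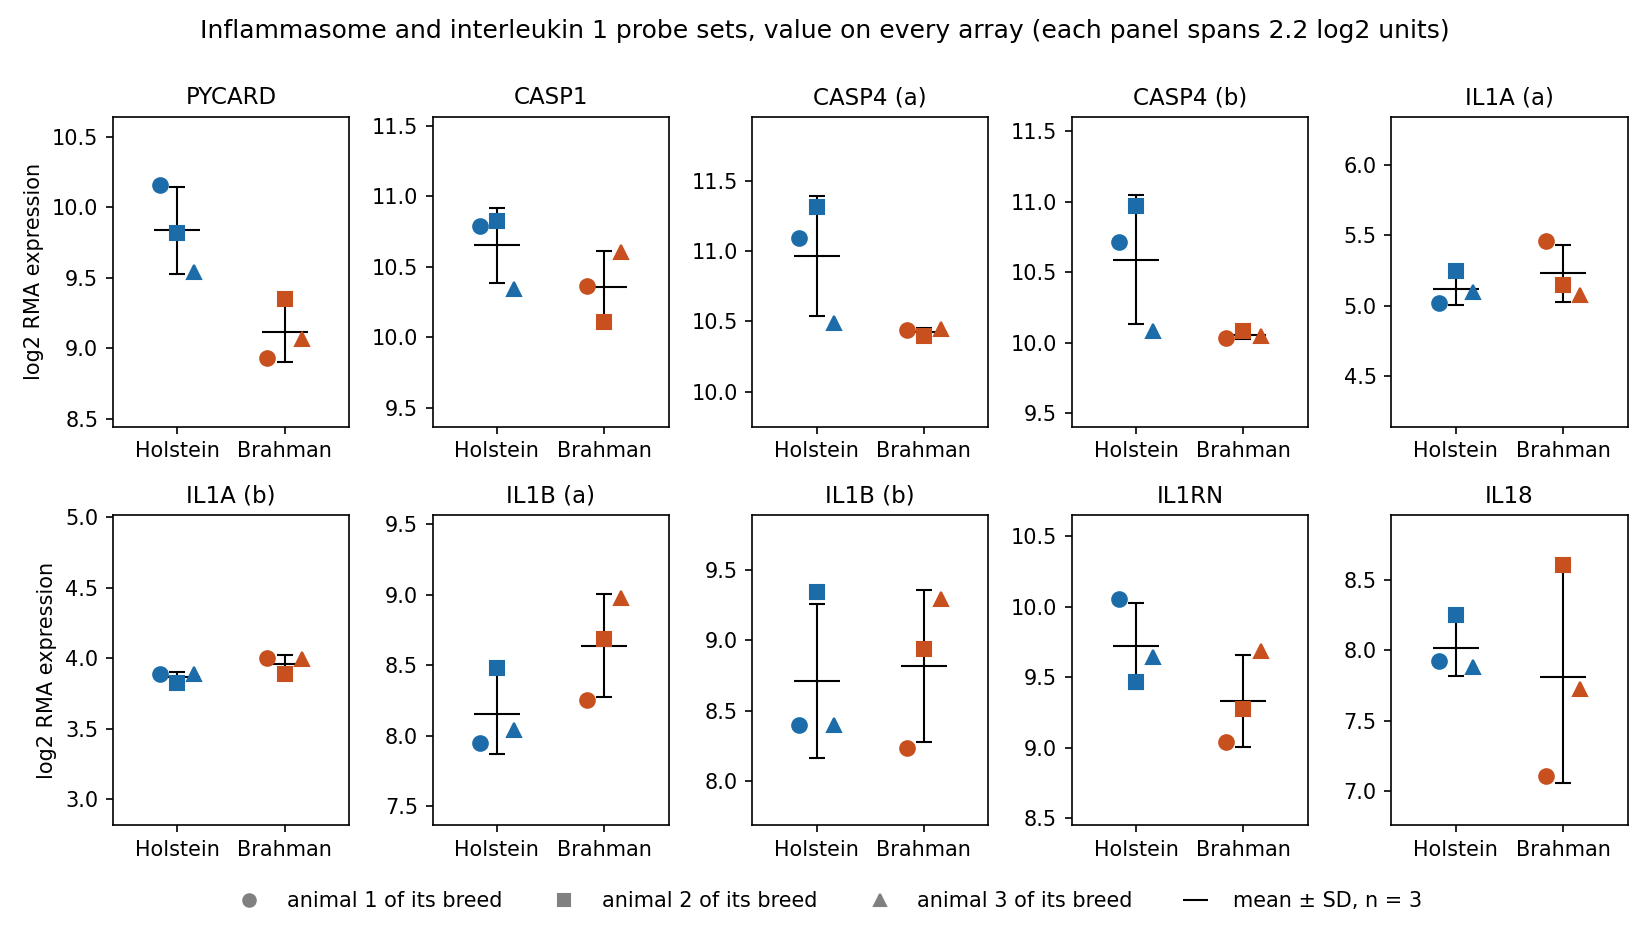
Log2 RMA expression of the 10 probe sets on each array, by breed (blue Holstein, orange Brahman), with the mean and SD of 3 animals; (a) and (b) are the probe sets of a gene in the order of the text. The PYCARD points of the breeds do not overlap, the Brahman CASP4 points lie almost on each other, and the IL18 points of Brahman run from 7.11 to 8.60.

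The adaptor PYCARD had the smallest p of the members. Its probe set Bt.11586.1.S1_at read 10.16, 9.82 and 9.54 in Holstein 1, 2 and 3 and 8.93, 9.35 and 9.07 in Brahman 1, 2 and 3. Every Brahman animal lay below every Holstein animal, with Holstein 3 and Brahman 2 nearest to each other. The means were 9.84 ± 0.31 in Holstein and 9.12 ± 0.22 in Brahman (SD, n = 3 each). The difference was -0.72 (SE 0.18, 95% interval -1.14 to -0.30), a 1.65-fold lower signal in Brahman. Its unadjusted p in limma was 0.00432 and its adjusted p was 0.189, which misses the threshold. By p it ranked 548 of 24016 probe sets. With each array left out in turn, the difference ran from -0.87 without Holstein 3 to -0.56 without Holstein 1.

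CASP1, the protease that PYCARD gathers, read 10.79, 10.82 and 10.34 in Holstein 1, 2 and 3 and 10.36, 10.10 and 10.60 in Brahman 1, 2 and 3. Holstein 3 lay below Brahman 1 and Brahman 3, so the breeds overlapped. The difference was -0.30 (SE 0.17, 95% interval -0.70 to 0.11, adjusted p = 0.506 in limma). Without Holstein 3 it was -0.45, and without Brahman 2 it was -0.17.

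CASP4 encodes an inflammatory caspase that responds to bacterial lipopolysaccharide inside the cell, and RefSeq lists CASP13 as another name of the bovine gene. In the ARS-UCD2.0 assembly CASP1 and CASP4 are neighbours, with 0 protein-coding genes between them. The first CASP4 probe set, Bt.16018.1.S1_a_at, read 11.09, 11.31 and 10.49 in Holstein 1, 2 and 3 and 10.44, 10.40 and 10.45 in Brahman 1, 2 and 3. Holstein 1 and Holstein 2 were high, while Holstein 3 lay just above the Brahman animals, which were nearly equal. The second, Bt.16018.1.S2_at, read 10.71, 10.97 and 10.08 in Holstein and 10.04, 10.08 and 10.05 in Brahman. It showed the same split, with Holstein 3 at the level of the Brahman animals.

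The SD of the first CASP4 probe set was 0.42 in Holstein and 0.03 in Brahman, and that of the second 0.46 and 0.03. No test of the spread was made on 3 animals. The differences were -0.54 (SE 0.20, adjusted p = 0.308 in limma) and -0.53 (SE 0.21, adjusted p = 0.336). Both probe sets target the same gene and are not independent. The size rested on single arrays: without Holstein 3 the differences were -0.77 and -0.79, and without Holstein 2 they were -0.36 and -0.34. At an unadjusted p under 0.05, each was past that limit in 1 of the 6 fits that leave out an array, the one without Holstein 3.

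**Figure D2:**
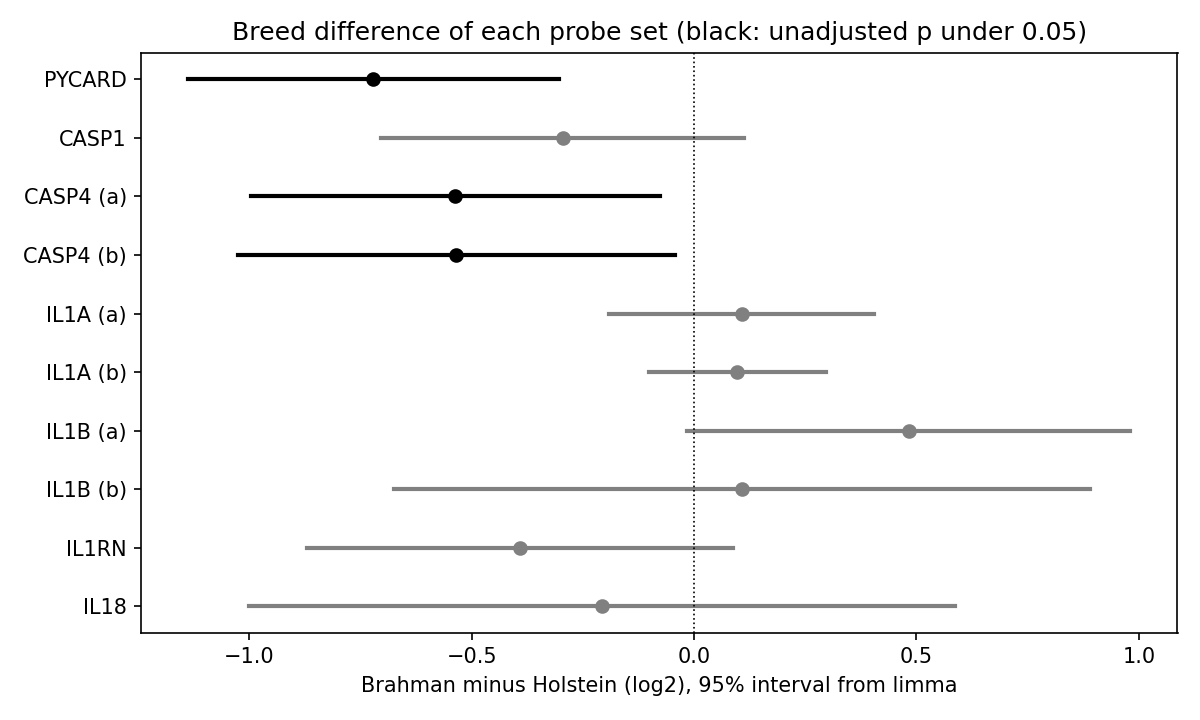
Brahman minus Holstein difference (log2) of each probe set with its 95% interval from limma, black where the unadjusted p is under 0.05. The intervals of PYCARD and of both CASP4 probe sets lie below 0, that of IL1B (a) reaches from -0.01 to 0.98, and the others span 0.

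Among the cytokines, IL1B encodes interleukin 1 beta, the main cytokine that CASP1 releases. Its first probe set, Bt.4856.1.S1_at, read 7.95, 8.48 and 8.04 in Holstein 1, 2 and 3 and 8.25, 8.69 and 8.98 in Brahman 1, 2 and 3. Only Holstein 2 reached into the Brahman range. The difference was 0.48 (SE 0.21, 95% interval -0.01 to 0.98), with an unadjusted p of 0.0556 and an adjusted p of 0.379 in limma. It was 0.31 without Brahman 3, and 0.68 without Brahman 1 (unadjusted p = 0.0109).

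The second IL1B probe set, Bt.4856.1.S2_at, read 8.40, 9.34 and 8.40 in Holstein 1, 2 and 3 and 8.23, 8.94 and 9.29 in Brahman 1, 2 and 3. Here Holstein 2 was the highest of all animals and Brahman 1 the lowest. The difference was 0.11 (SE 0.33, 95% interval -0.67 to 0.89, adjusted p = 0.925 in limma). Its sign turned without Brahman 3 (-0.13), Holstein 1 (-0.05) or Holstein 3 (-0.05), and it was 0.40 without Brahman 1 and 0.42 without Holstein 2.

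The probe sets of IL1B therefore gave unequal breed differences. The first minus the second was -0.45, -0.86 and -0.36 in Holstein 1, 2 and 3 and 0.02, -0.25 and -0.31 in Brahman 1, 2 and 3. The values of the breeds do not overlap, although Holstein 3 and Brahman 3 lie close, and no test was made since the pair was examined after its values were seen. For CASP4 the same quantity was 0.37 ± 0.04 in Holstein and 0.37 ± 0.05 in Brahman (SD, n = 3 each). Which IL1B probe set follows the transcript in both breeds was not tested.

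**Figure D3:**
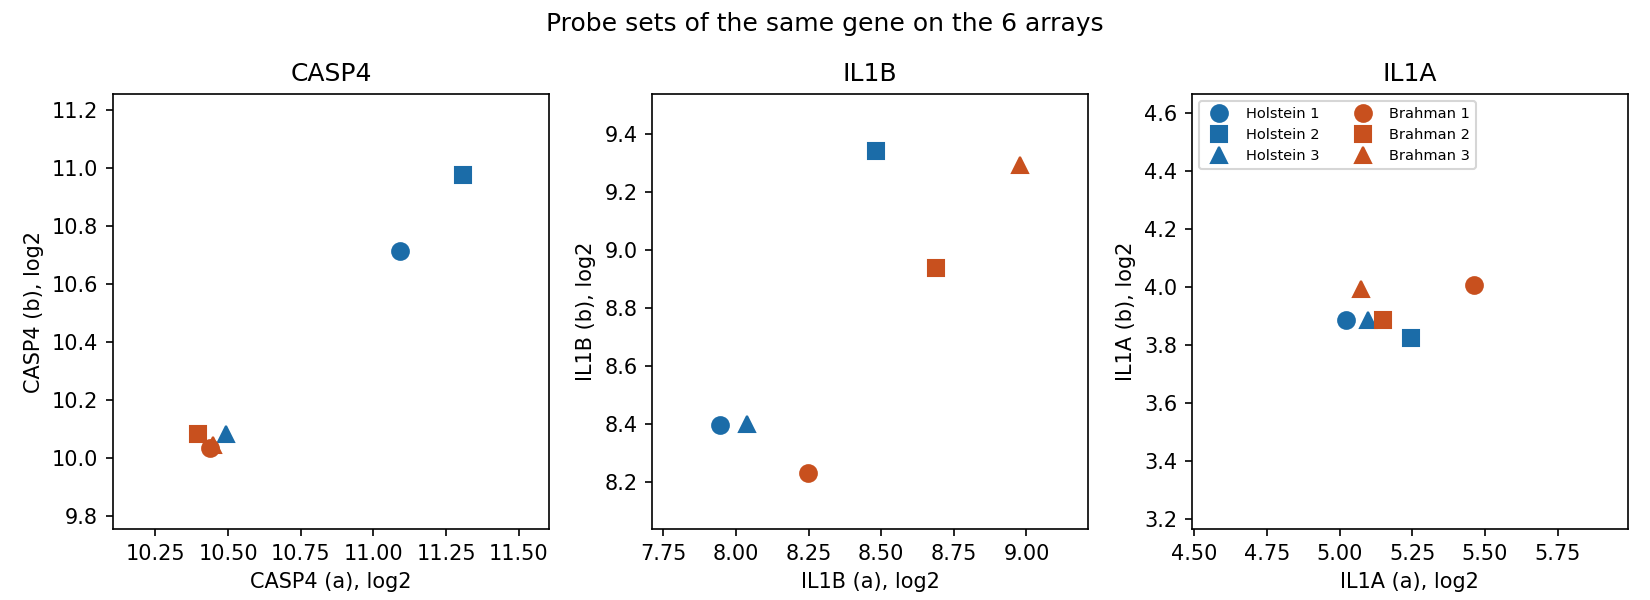
Second probe set (b) against first probe set (a) of CASP4, IL1B and IL1A on the 6 arrays, log2 RMA, each panel spanning the same range on both axes. The CASP4 points lie along a line with Holstein 3 among the Brahman animals, and IL1A shows little spread. For IL1B, (a) minus (b) is higher in every Brahman animal than in any Holstein animal, while the (b) values of the breeds overlap.

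IL1A encodes interleukin 1 alpha, which is active without cleavage by CASP1. Its first probe set, Bt.191.1.S1_at, ran from 5.02 to 5.25 in Holstein and from 5.07 to 5.46 in Brahman. The second, Bt.191.1.S2_at, ran from 3.82 to 3.89 in Holstein and from 3.89 to 4.01 in Brahman. The breeds did not overlap in the second, where Holstein 1 and Holstein 3 lay within 0.01 of Brahman 2. The differences were 0.11 (SE 0.13) and 0.10 (SE 0.09), with adjusted p-values of 0.764 and 0.665 in limma, and the first was -0.0099 without Brahman 1. The means over all arrays, 5.17 and 3.91, lie near and under the lower quartile, so these levels are not shown to be above background and IL1A RNA was not shown to be present.

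IL1RN read 10.06, 9.47 and 9.64 in Holstein 1, 2 and 3 and 9.04, 9.27 and 9.68 in Brahman 1, 2 and 3. Brahman 3 lay within the Holstein range, and the other Brahman animals lay below it. The difference was -0.39 (SE 0.20, 95% interval -0.87 to 0.09, adjusted p = 0.45 in limma). It was -0.22 without Holstein 1, -0.25 without Brahman 1 and -0.57 without Brahman 3. In ARS-UCD2.0, IL1A, IL1B and IL1RN belong to 1 gene cluster, with 1 protein-coding gene between IL1A and IL1B and 6 between IL1B and IL1RN.

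IL18, whose product induces interferon gamma in T and NK cells, was the member that varied most among animals. It read 7.93, 8.25 and 7.88 in Holstein 1, 2 and 3 and 7.11, 8.60 and 7.72 in Brahman 1, 2 and 3. The highest and the lowest animal of all were both Brahman, 1.50 apart. The difference was -0.21 (SE 0.34, 95% interval -1.002 to 0.59, adjusted p = 0.835 in limma), and it was -0.60 without Brahman 2 (unadjusted p = 0.0262), -0.09 without Holstein 2 and 0.14 without Brahman 1.

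Most members varied more among animals of a breed than most other probe sets of their level. The within-breed SD of IL18 was 0.55, larger than that of 97.7% of the 1000 probe sets nearest to it in level. For IL1B the figures were 0.33 and 90.4% in the first probe set and 0.54 and 97.4% in the second. PYCARD stood at 82.9%, CASP1 at 82.1%, IL1RN at 88.5% and CASP4 at 86.9% and 89.9%, while IL1A stood at 61.4% and 8.1%. These shares describe the arrays and carry no test. Brahman 1 was the lowest of all 6 animals for PYCARD, IL1RN, IL18 and the second IL1B probe set, and the highest for both IL1A probe sets.

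**Figure D4:**
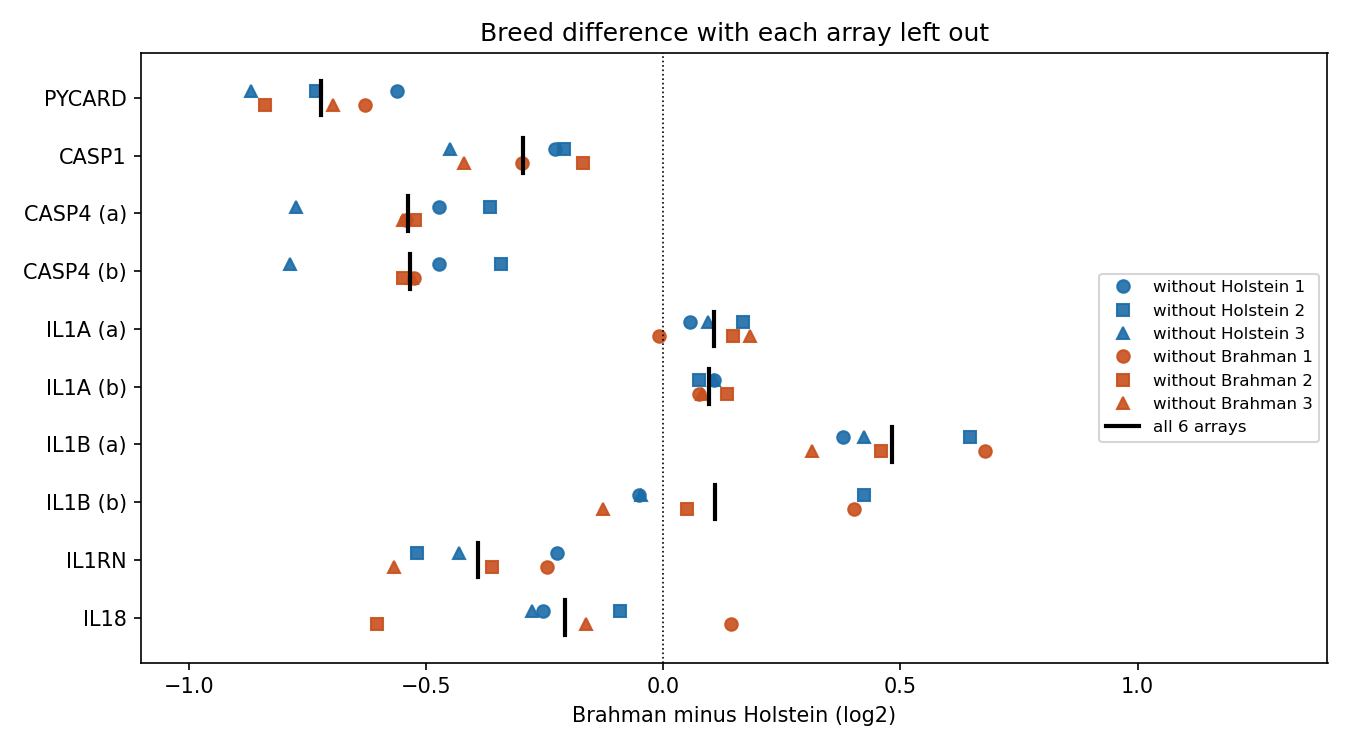
Brahman minus Holstein difference (log2) of each probe set with all 6 arrays (black bar) and with each array left out (blue, a Holstein array left out; orange, a Brahman array). PYCARD stays between -0.87 and -0.56, whereas IL1B (b) and IL18 lie on both sides of 0.

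Whether members differed unequally between the breeds was tested within arrays, as the log2 value of a gene's brightest probe set minus that of another. IL1B minus IL1RN, the cytokine against its antagonist, was -1.66, -0.13 and -1.24 in Holstein 1, 2 and 3 and -0.81, -0.33 and -0.39 in Brahman 1, 2 and 3. It was higher in Brahman by 0.50, with overlap and an exact two-sided permutation p of 0.4. PYCARD minus CASP1 was -0.63, -1.01 and -0.80 in Holstein and -1.43, -0.75 and -1.54 in Brahman, a difference of -0.43 with an exact permutation p of 0.3. IL1B minus IL18 differed by 0.32, with an exact permutation p of 0.6. Without Holstein 1 the first difference was 0.17 and without Holstein 2 it was 0.94. PYCARD minus CASP1 ran from -0.67 without Brahman 2 to -0.28 without Brahman 3, and IL1B minus IL18 from 0.03 without Brahman 3 to 0.65 without Brahman 2. The adjusted p over these 3 pairs was 0.6 for each, and 3 against 3 arrays cannot give a p below 0.1. For IL1B the brightest probe set is the second (breed difference 0.11), and no pair was run with the first (0.48). So, in the brightest probe sets, unequal breed differences of these members were not shown at this number of animals.

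Other measures also differed between the groups. The mean of 9 hybridisation spike-in controls, labelled control RNA added at hybridisation, ran from 9.71 to 10.17 on the Holstein arrays and from 9.40 to 9.56 on the Brahman arrays, without overlap. A model with this level added separates it poorly from breed, since its values do not overlap between the breeds. In that model the PYCARD difference was -0.88 (SE 0.34, against 0.18 without the level, unadjusted p = 0.0401 in limma). Those of CASP4 were -0.24 and -0.19 (unadjusted p = 0.527 and 0.631) and that of CASP1 was -0.13. The IL1B probe sets then differed by 1.16 and 1.27 (unadjusted p = 0.00427 and 0.0125, adjusted p = 0.398 and 0.422), IL1RN by -0.68, IL18 by 0.31 and the IL1A probe sets by 0.19 and 0.03. The actin 3′ minus 5′ probe set difference, a sign of RNA quality, was 1.73, 1.98 and 1.88 on Holstein 1, 2 and 3 and 1.70, 1.64 and 1.72 on Brahman 1, 2 and 3, also without overlap although Holstein 1 and Brahman 3 lay close. The part of the spike-in level and of the actin difference in these results, the unequal IL1B probe sets included, was not tested.

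In bulk RNA, fewer cells of a type and less RNA per cell cannot be told apart. The mean of 7 monocyte markers (of 11 listed) ran from 8.32 to 8.56 in Holstein and from 8.10 to 8.50 in Brahman, and that of 9 neutrophil markers (of 12) from 8.95 to 9.32 and from 9.04 to 9.32, both with overlap. Both means join markers that went opposite ways. In the monocyte list 4 of 7 had lower means in Brahman, CD14 (-0.94), FCN1 (-0.58), CD68 (-0.54) and CSF1R (-0.31). The others there were VCAN (0.92), ITGAM (0.21) and CD36 (0.11). In the neutrophil list 5 of 9 had lower means in Brahman, and FCGR3A differed by -0.78 and ALPL by 1.42. Markers of T cells (9 of 10), B cells (3 of 7) and NK cells (7 of 8) had higher means in each Brahman animal than in any Holstein animal, by 0.27, 0.20 and 0.60. Of the 9 T cell markers, 2 had lower means in Brahman, CD3G (-0.04) and CD8B (-0.15), and 5 were higher at an unadjusted p under 0.05 in limma. The B cell mean rested on BLK (0.97), since MS4A1 (-0.14) and CD79A (-0.23) had lower means in Brahman. In the NK list GZMB differed by 2.51 and PRF1 by -0.60. Of the platelet list 2 of 5, of the erythroid list 5 of 6 and of the eosinophil list 1 of 5 were measured, all overlapping, and of the dendritic cell list 0 of 4. The markers CAMP (5.00, neutrophil list), CD36 (4.41), ITGA2B (4.45), AHSP (4.41) and SLC4A1 (4.11) lay under the quartile given above.

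Relative to the monocyte marker mean of each array, a comparison chosen after the values were seen, the first IL1B probe set differed by 0.64 (unadjusted p = 0.00441, adjusted p = 0.127 in limma) and PYCARD by -0.56 (unadjusted p = 0.0134, adjusted p = 0.252). Both CASP4 probe sets then differed by -0.38 and -0.37, CASP1 by -0.13, IL1RN by -0.23 and the second IL1B probe set by 0.27. Relative to the neutrophil marker mean PYCARD differed by -0.74 (adjusted p = 0.0434 in limma). Each of these fits subtracts 1 value per array, so it moves the breed difference of every probe set by the same amount. The monocyte and neutrophil marker means themselves differed by -0.16 and 0.02. These fits called 564 and 345 probe sets in place of 33, so their threshold was passed far more often. Of the 564, 413 were higher and 151 lower in Brahman. The other 9 member probe sets were called in neither fit.

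Other inflammasome genes, regulators included, were taken from a written list of 42, of which 19 had a probe set. The sensors NLRP1, NLRC4, NAIP, AIM2, MEFV and NOD2 and the protease CASP8 were among the 23 without one under the listed symbol. So was CASP13, which is another name of the member CASP4 and not a further gene. With the brightest probe set of each gene, 0 of 19 passed the adjusted threshold, against 0.164% of all genes, and 3 passed an unadjusted p under 0.05, which is 15.8%, the same share as over all genes. All 3 were lower in Brahman, where 9.62% of all genes were. The median difference was -0.12, and 14 of 19 had lower means in Brahman, against 51.7% of all genes.

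CARD9, an adaptor for fungal sensing by phagocytes, read 7.02, 6.57 and 6.76 in Holstein 1, 2 and 3 and 6.08, 6.28 and 6.28 in Brahman 1, 2 and 3, with no overlap. It differed by -0.57 (SE 0.13, adjusted p = 0.174 in limma). The ATP-gated channel gene P2RX4 differed by -0.42 (SE 0.13, adjusted p = 0.261). GSDMD, whose cleaved product forms the pore through which interleukin 1 beta leaves the cell, differed by -0.25 (SE 0.10, adjusted p = 0.347). Its unadjusted p in limma was 0.0413, and 0.0631 with the trended robust prior. With the spike-in level in the model P2RX4 differed by -0.35 and GSDMD by -0.32 (unadjusted p = 0.209 and 0.124 in limma).

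The next 3 of this list had higher means in Brahman and unadjusted p-values above 0.1 in their brightest probe sets. SERPINB9, an inhibitor of granzyme B, differed by 0.22, and its other probe sets by 0.26 and -0.0037, all at means under 5.1. The probe set at 0.26 had an unadjusted p of 0.0305 and an adjusted p of 0.318 in limma, without overlap of the breeds. The mitochondrial NOD-like protein gene NLRX1 differed by 0.18, and its other probe set by -0.21. The ATP receptor gene P2RX7, a classical trigger of NLRP3, differed by 0.24, and its other probe sets by 0.09, 0.07 and -0.16, all at means under 5.1. Probe sets of NLRX1 and P2RX7 thus disagree in sign. With the spike-in level in the model, SERPINB9, NLRX1 and P2RX7 were at -0.0078, 0.009 and -0.11, and CARD9 was at -0.87. SERPINB9 was 0.34 without Holstein 1 and 0.13 without Holstein 3, and NLRX1 and P2RX7 were 0.11 and 0.12 without Holstein 2.

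**Figure D5:**
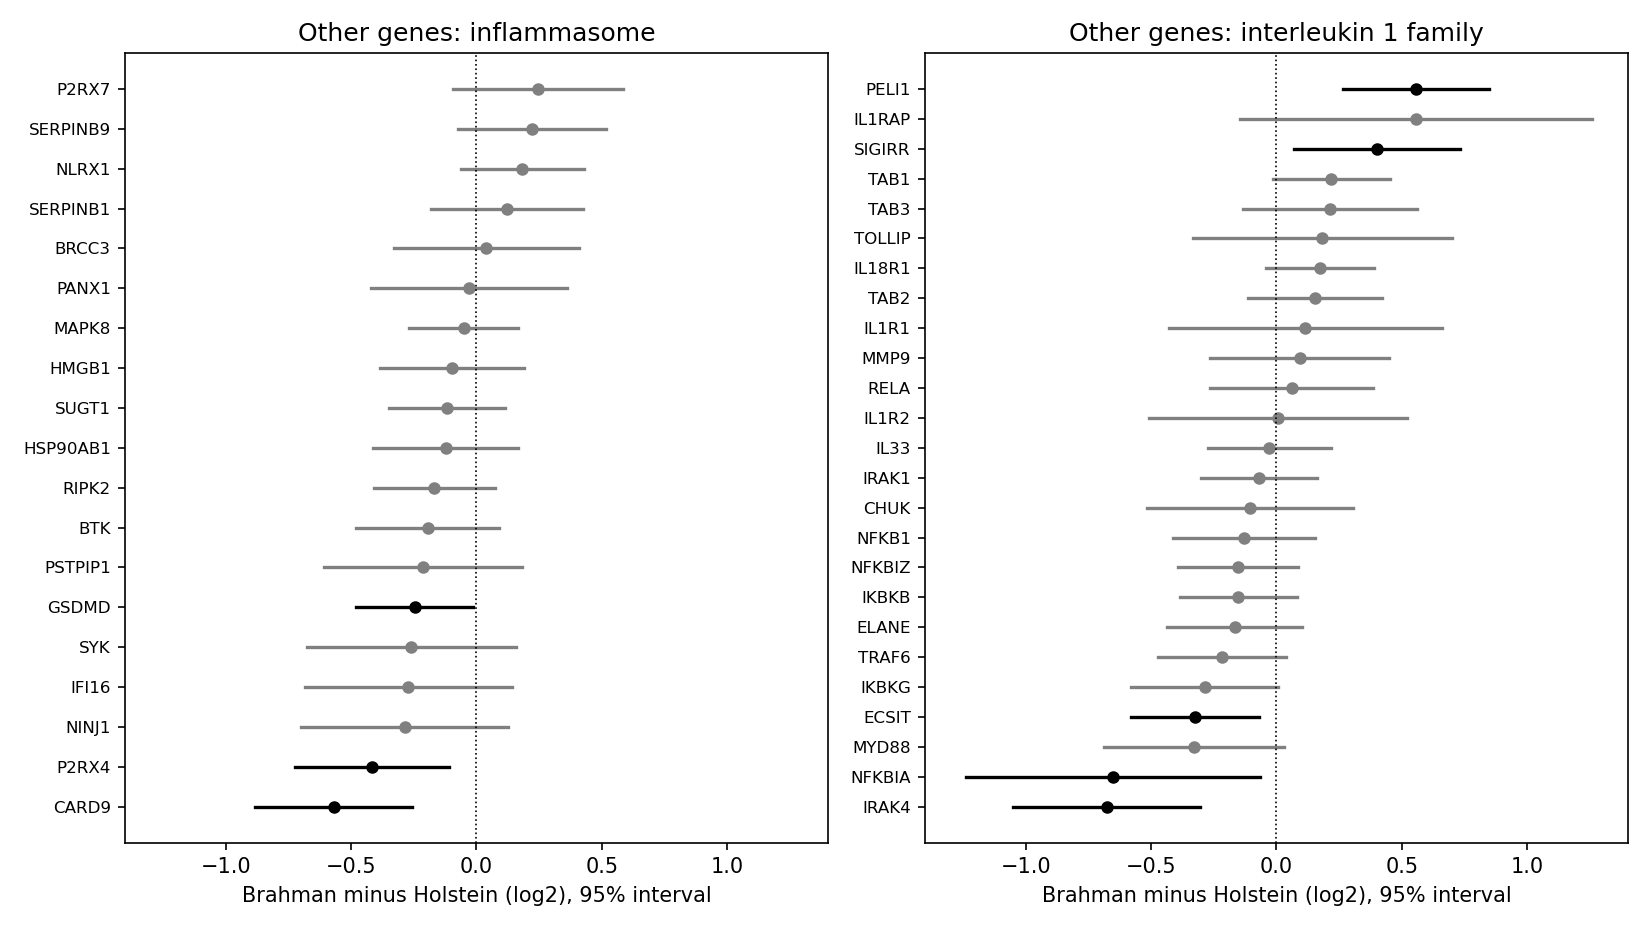
Brahman minus Holstein difference (log2) with its 95% interval from limma for the other inflammasome genes (left, 19 genes) and the other interleukin 1 family genes (right, 25 genes), sorted by size, black where the unadjusted p is under 0.05. In the left panel the 3 black genes are lower in Brahman, and in the right panel 3 are lower and 2 higher.

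Receptors and signal transducers of the interleukin 1 family were taken from a second list of 42 genes, of which 25 had a probe set. The interleukin 36 genes, IL37, IL1RL1, IL18RAP and IL18BP were among the 17 without one under the listed symbol. Here too 0 passed the adjusted threshold, and 5 of 25 (20%) passed an unadjusted p under 0.05, with 3 lower and 2 higher in Brahman, where 9.62% and 6.23% of all genes were. In 9 of 25 the breeds did not overlap (36%), against 22.7% of all genes, with 5 lower and 4 higher. The median difference was -0.03.

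The ubiquitin ligase gene PELI1, which acts on the IRAK kinases, read 8.48, 8.76 and 8.83 in Holstein 1, 2 and 3 and 9.13, 9.22 and 9.40 in Brahman 1, 2 and 3, with every Brahman animal higher. It differed by 0.56 (SE 0.12, adjusted p = 0.163 in limma), and its other probe sets by 0.34 and 0.17. IRAK4, the first kinase recruited by MYD88, read 10.22, 10.55 and 10.24 in Holstein and 9.52, 9.97 and 9.49 in Brahman, with every Brahman animal lower. It differed by -0.68 (SE 0.16, adjusted p = 0.175), and its other probe set by -0.76.

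SIGIRR, a receptor that dampens interleukin 1 and Toll-like signals, differed by 0.40 (SE 0.14, adjusted p = 0.295 in limma). ECSIT, an adaptor of TRAF6 that also serves in mitochondria, differed by -0.32 (SE 0.11, adjusted p = 0.281). NFKBIA, the inhibitor of NF-kappa-B that is itself induced by it, differed by -0.65 (SE 0.25, adjusted p = 0.327), and Holstein 1 stood apart at 11.41 where the other Holstein animals read 10.56 and 10.39. Without Holstein 1 it differed by -0.34. IKBKG, a regulatory subunit of the kinase that marks NFKBIA for decay, differed by -0.29 (SE 0.13, adjusted p = 0.378), and by -0.16 without Holstein 1. With the spike-in level in the model IRAK4 differed by -0.37, ECSIT by -0.57, SIGIRR by 0.27, NFKBIA by -1.23 and IKBKG by -0.62.

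The probe sets most like PYCARD were sought among 9199 probe sets with 1 gene symbol and a mean of at least 6. Likeness was the root mean square difference of the 6 values after each probe set's mean was subtracted. The closest were CNDP2, a dipeptidase gene (0.10), LOC788425 (0.11) and CFP (0.11), the gene of properdin, a complement regulator made by myeloid cells. Their breed differences were -0.68, -0.77 and -0.64. Values near that of PYCARD follow from the choice, since the 6 values compared hold the breed difference. For the brightest IL1B probe set the closest were RAB18 (0.15), RBM18 (0.19) and SRPK2 (0.20), so among these candidates no probe set lay as close to IL1B as the 3 above lay to PYCARD.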

How the data were processed

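Total RNA of white blood cells from 6 animals was hybridised to 6 arrays. The deposited values are on a log2 scale. The submitters' processing notes name RMA as the authors' method and give no version. Scanner intensities and detection calls were not used, so background could not be measured. Brahman was compared with Holstein with limma 3.58.1 in R 4.3.3 (lmFit, eBayes) over 24016 probe sets, leaving out 112 array controls. Tests were two-sided with Benjamini-Hochberg adjustment, and 0.05 was the threshold. The SE is the moderated one. Precision is limited by the 3 arrays of each breed. The fit was tested on simulated data.

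Gene names came from the platform's annotation, and the 10 member probe sets matched RefSeq (ARS-UCD2.0) by Entrez identifier. No array build is named, so no coordinates are given.

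Members and lists were chosen with earlier results of these data known. Named genes are all members, the 6 genes of each list with the smallest p and the 3 probe sets most like PYCARD or IL1B. The single cell type markers named and the genes named as without a probe set were chosen after the data were seen. Alternatives were a filter on dim probe sets, median centring, a trended robust prior, weights for arrays, a block for the replicate number, 1 probe set per gene, a term for the spike-in level and each array left out. The pair of PYCARD and NLRP3 was not run, since NLRP3 had no probe set.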

Additional observations from a re-analysis of the deposited data

How the results depend on the processing

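Under each of 13 alternatives 0 member probe sets were called, and PYCARD, CASP1, CASP4, IL1RN, the first IL1B and the second IL1A probe set kept their sign wherever they were fitted. With an array left out, the first IL1A probe set ran from -0.0099 without Brahman 1 to 0.18 without Brahman 3. The second IL1B probe set was -0.13, -0.05 and -0.05 without Brahman 3, Holstein 1 and Holstein 3, and 0.42 without Holstein 2. IL18 was 0.14 without Brahman 1, -0.60 without Brahman 2 and 0.31 with a term for the spike-in level, which also turned SERPINB9 (-0.0078) and P2RX7 (-0.11). The cause was not tested. PYCARD had an unadjusted p under 0.05 in all 13, and was called (-0.74) only relative to the neutrophil markers, an alternative chosen after the data were seen. Member probe sets at an unadjusted p under 0.05 numbered 3, and 1 to 4 with an array left out. Inflammasome list genes at that limit numbered 3, 2 to 5 with an array left out and 1 with the spike-in covariate; for the interleukin 1 family 5 became 8 with that covariate.

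Over all probe sets 33 calls became 10 with the replicate block, 0 with the spike-in covariate and 5 to 55 with an array left out. With 1 probe set per gene 15 were called. At an unadjusted p under 0.05 there were 3263 of 24016 probe sets, and 1465 of 9155 with 1 probe set per gene. With the spike-in covariate the count under that limit was 2379. Pairing of the animals by replicate number was not shown. The correlation of deviations between same-numbered animals was 0.11, -0.04 and -0.07, and so few values cannot exclude pairing. With the replicate block, PYCARD stayed at -0.72 and 4 member probe sets had an unadjusted p under 0.05. The within-array differences kept their direction with each array left out. Without scanner values, signal over background is unknown, which limits IL1A most.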
